A study of Mus musculus with 18 samples.

Results

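Pax8, Nkx2-1, Foxe1, Hhex and Glis3 are the transcription factors that set up and maintain the identity of the thyroid follicular cell. They were taken as the 5 rows of the deposited expression table named PAX8, NKX2-1, FOXE1, HHEX and GLIS3, out of 23626 gene entries used, and all 5 were present. Messenger RNA had been sequenced from 18 libraries of mouse thyroid cells sorted for yellow fluorescent protein (YFP) at 20 weeks. K5-Tert tumours (4 libraries) carried BrafV600E, a change that keeps the kinase Braf active, together with the K5-Tert transgene, which drives Tert from a keratin 5 promoter. Tert-123 tumours (7 libraries) carried BrafV600E with Tert-123C>T, a change in the promoter of Tert, and Braf tumours (4 libraries) carried BrafV600E alone. A further 3 libraries were pools lacking the Braf mutation, 1 each of K5-Tert mice, of mice with Tert-123C>T and of wild-type mice. The series concerns telomerase, whose reverse transcriptase Tert encodes, in thyroid cancers driven by the Braf mutation. The labels call every library, pools included, thyrocytes from a thyroid tumour, and they give neither the driver of the Braf allele and of YFP nor the number of mice in a pool. Whether libraries of a group came from different animals is not stated, and p-values therefore refer to the spread among these samples, which may be technical.

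In the mouse embryo Pax8, Nkx2-1, Foxe1 and Hhex are expressed together in the foregut cells that become the thyroid, and each is needed for the gland to form or persist. Pax8 is a paired-domain protein and Nkx2-1 a homeodomain protein that act on the thyroglobulin gene, and Foxe1 is a forkhead protein that acts beside them. Hhex is a homeodomain protein known mostly as a repressor, and Glis3 is a zinc finger protein that acts in hormone synthesis after birth. Nkx2-1 is also made by lung epithelium and by the calcitonin-producing C cells of the thyroid, and Hhex also by endothelium and B cells.

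Promoter sequence is shown for Pax8 and Glis3 because their levels moved in opposite directions with the Braf mutation, Pax8 lower and Glis3 higher. That of Hhex is shown because it held the only match to a motif searched among the factors. The sequences are the 250 bases before the start of the gene in RefSeq, build GRCm38.p6, read 5′ to 3′ on the strand of the gene. They cover chr2:24475600-24475849 on the minus strand for Pax8, chr19:28680078-28680327 on the minus strand for Glis3 and chr19:37434591-37434840 on the plus strand for Hhex. Capitals mark the match to TGGGGGG.

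Pax8: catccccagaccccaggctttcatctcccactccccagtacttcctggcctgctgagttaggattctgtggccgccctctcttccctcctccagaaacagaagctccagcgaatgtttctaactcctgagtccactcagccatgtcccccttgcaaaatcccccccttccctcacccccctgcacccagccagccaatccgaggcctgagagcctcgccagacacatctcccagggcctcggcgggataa
Glis3: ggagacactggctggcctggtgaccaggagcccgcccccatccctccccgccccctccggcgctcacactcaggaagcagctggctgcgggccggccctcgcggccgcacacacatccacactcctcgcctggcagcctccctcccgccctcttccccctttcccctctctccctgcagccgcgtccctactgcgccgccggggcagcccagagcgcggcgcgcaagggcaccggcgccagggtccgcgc
Hhex: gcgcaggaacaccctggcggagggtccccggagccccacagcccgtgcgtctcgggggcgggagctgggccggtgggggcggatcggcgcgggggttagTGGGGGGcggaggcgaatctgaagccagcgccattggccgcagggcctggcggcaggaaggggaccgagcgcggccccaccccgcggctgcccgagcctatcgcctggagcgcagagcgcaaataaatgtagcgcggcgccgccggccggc

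The promoters of 4 of the 5 factors were in the RefSeq table, all but Foxe1. The Hhex and Glis3 windows were rich in G and C, at 76.0% and 75.6%, with 32 and 24 CpG dinucleotides. Those of Pax8 and Nkx2-1 held 60.4% and 50.8% G and C with 6 and 9 CpG, against a median of 52.4% and 6 over all 32851 promoters of the table. Each window was searched on both strands for CTCAAG (bound by NKX2-1), GTCACGC (PAX8), GTAAACA (forkhead proteins), TGGGGGG (GLIS proteins), TGACGTCA (cyclic AMP response), TGANTCA (AP-1) and CCGGAAG (ETS proteins). The single match was the GLIS motif in Hhex, on the strand of the gene and 151 bases before its start, and 7.67% of all promoters held that motif. Of the 15 genes of hormone synthesis and thyroid function listed, 9 had a promoter in the table. CTCAAG was found in 2 of these, Duox2 and Slc26a4, and in 13.3% of all promoters. The GLIS motif was in 1, Slc5a5, and the AP-1 motif in 1, Duoxa2, against 7.67% and 6.75% of all promoters. These are matches of letters and not measured binding sites.

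Levels were read as transcript abundance in TPM, which is scaled for gene length, so that genes can be compared within a library. That scaling is assumed from the column sums alone, and the order and ranks of the factors below rest on it. The read depth is unknown. In the GENCODE vM21 annotation noncoding genes on the opposite strand overlap Pax8, Nkx2-1, Foxe1 and Glis3, and whether counting used the strand is not given in the sources used here. The noncoding RNA Rpph1 took 43.7% to 68.8% of the TPM, and 10958 to 15045 genes reached 1 TPM. K5-Tert tumours 2, 3 and 4 stood apart, with the nuclear RNA Malat1 at 1191, 1908 and 1050 TPM, against 5902 TPM in K5-Tert tumour 1 and 5072 to 8420 TPM in the other 11 tumours. Relative to the mean of all tumours, levels also fell with gene length in these 3 libraries, by 0.30, 0.13 and 0.21 on the log2 scale per doubling, and in Tert-123 tumour 7, by 0.07. On the same measure they rose with length in the pools of K5-Tert, of Tert-123C>T and of wild type, by 0.24, 0.14 and 0.22. Xist reached 10 TPM in 1 of 4 K5-Tert, 4 of 7 Tert-123 and 4 of 4 Braf tumours. In the pools of K5-Tert, of Tert-123C>T and of wild type it was at 1.29, 10.9 and 43.2 TPM. The labels give no sex, so whether the groups were matched for sex is unknown. Tert was at 73.9, 11.2, 19.0 and 53.4 TPM in K5-Tert tumours, at 2.65 to 6.23 TPM in Tert-123 tumours and at 3.78 to 5.12 TPM in Braf tumours.

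All 5 factors were detected in every library, and each reached 10 TPM in all 18 libraries except Glis3, which did so in 17. Their order differed between tumours and pools. In each of the 3 tumour groups the means ran from Nkx2-1 through Hhex, Pax8 and Foxe1 to Glis3. In each of the 3 pools the order was Pax8, Foxe1, Nkx2-1, Hhex and Glis3. Several neighbours in the tumour order were not separated library by library. Nkx2-1 exceeded Hhex in 13 of 15 tumours, Pax8 exceeded Hhex in 1, Pax8 exceeded Foxe1 in 13 and Foxe1 exceeded Glis3 in 14. Ranked among all genes, Pax8 was 115th, 412th and 149th in the pools of K5-Tert, of Tert-123C>T and of wild type, and between the 409th and 2452nd in the tumours. Glis3 lay between the 5678th and 6563rd place in the pools and between the 1400th and 5044th in the tumours.

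**Figure D1:**
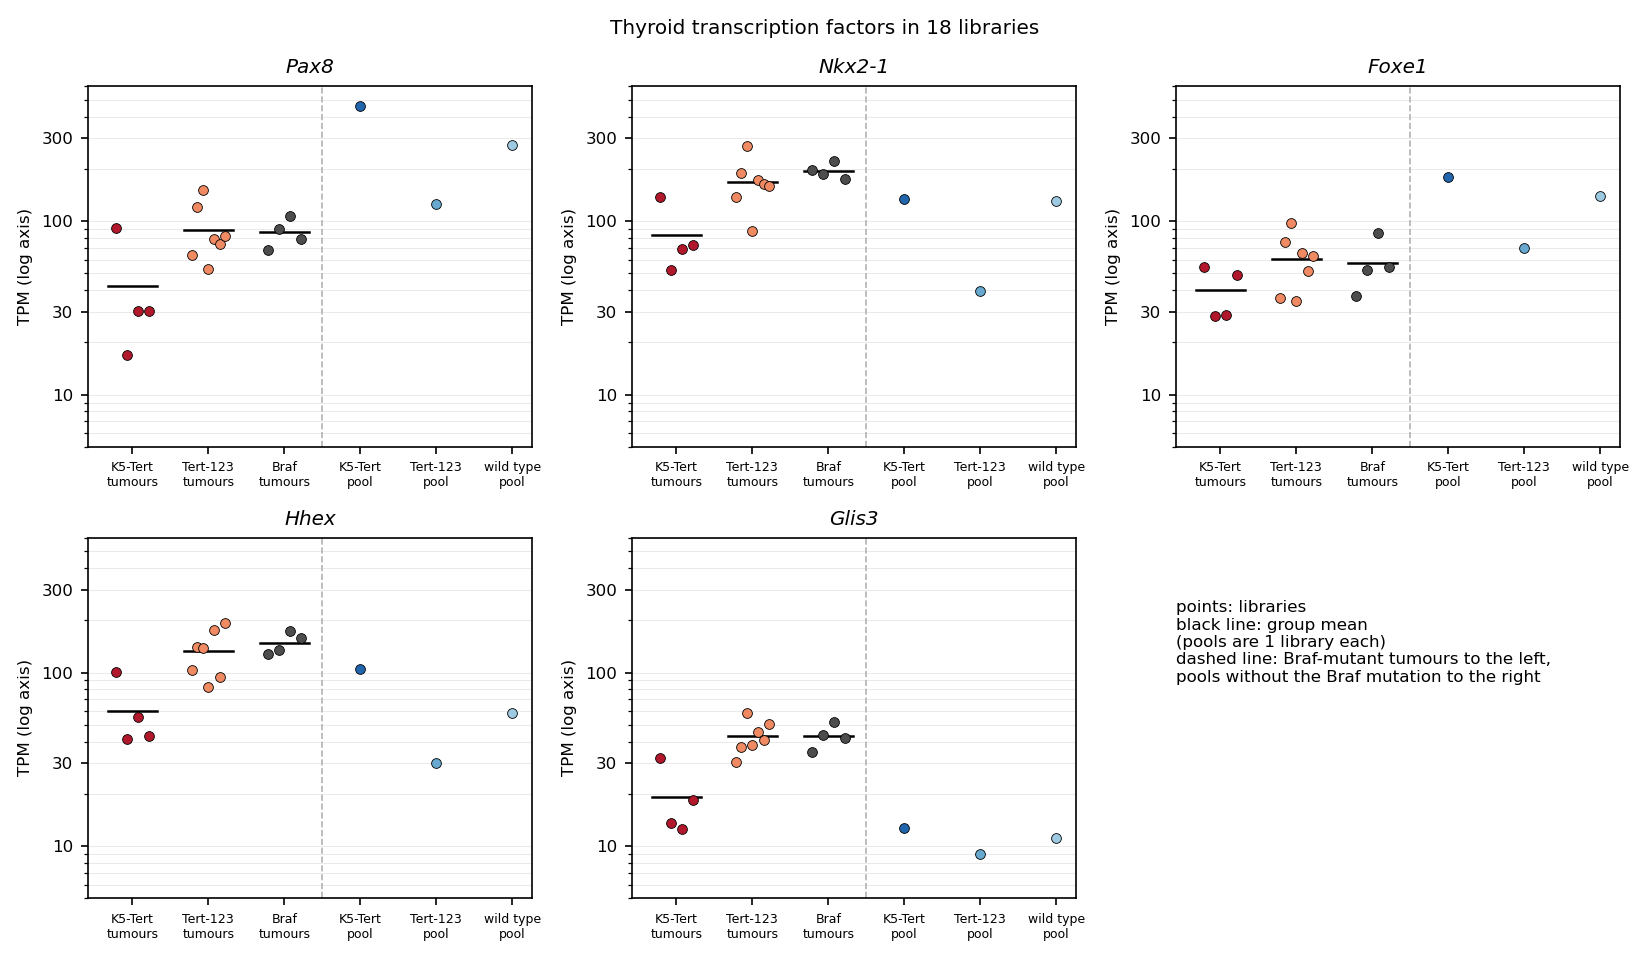
Level of each transcription factor in TPM (vertical log axis) in the 18 libraries, with 1 point per library and a black line at the mean of each tumour group. Pax8 and Foxe1 lie mostly below the pools and Glis3 above them, and 3 of the 4 K5-Tert tumours lie lowest among tumours for Pax8.

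The contrast of tumours with pools asks what changes with the Braf mutation, beside the Tert allele. Pax8 and Foxe1 fell, Glis3 rose, and Nkx2-1 and Hhex did not pass the test in the values as deposited. Pax8 was at 91.6, 16.8, 30.2 and 30.4 TPM in K5-Tert tumours, at 53.3 to 151 TPM (median 79.1) in Tert-123 tumours and at 67.8, 89.8, 107 and 79.3 TPM in Braf tumours. It was at 460 TPM in the K5-Tert pool, 126 TPM in the Tert-123C>T pool and 274 TPM in the wild-type pool. In 14 of 15 tumours Pax8 lay below all 3 pools, the exception being a Tert-123 tumour that lay above the Tert-123C>T pool. Its fitted log2 fold change for the Braf mutation was -1.94 ± 0.44 (SE, adjusted p = 0.0019, limma).

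Foxe1 was at 54.4, 28.3, 28.6 and 49.0 TPM in K5-Tert tumours, at 34.7 to 98.1 TPM (median 62.9) in Tert-123 tumours and at 37.1, 52.4, 85.2 and 54.0 TPM in Braf tumours. The pools held 180 TPM (K5-Tert), 69.8 TPM (Tert-123C>T) and 139 TPM (wild type). In 12 of 15 tumours it lay below all pools, and its log2 fold change was -1.24 ± 0.34 (SE, adjusted p = 0.0083). For both genes the K5-Tert pool held the highest level of all libraries.

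Glis3 moved the other way. It was at 32.3, 13.6, 12.6 and 18.5 TPM in K5-Tert tumours, at 30.6 to 58.2 TPM (median 40.6) in Tert-123 tumours and at 34.7, 43.9, 51.9 and 41.9 TPM in Braf tumours. The 3 pools were close together, at 12.7 TPM (K5-Tert), 9.04 TPM (Tert-123C>T) and 11.1 TPM (wild type). In 14 of 15 tumours Glis3 lay above every pool, with K5-Tert tumour 3 just below the K5-Tert pool. The log2 fold change was 1.49 ± 0.29 (SE, adjusted p = 0.00043), the gene passing the test in all 32 settings that gave it a value.

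Nkx2-1 was at 137, 52.4, 69.3 and 73.1 TPM in K5-Tert tumours, at 87.2 to 271 TPM (median 164) in Tert-123 tumours and at 198, 186, 222 and 174 TPM in Braf tumours, against 135, 39.7 and 131 TPM in the pools of K5-Tert, of Tert-123C>T and of wild type. Hhex was at 101, 41.4, 55.6 and 43.1 TPM in K5-Tert tumours, at 82.7 to 194 TPM (median 138) in Tert-123 tumours and at 128, 134, 174 and 159 TPM in Braf tumours, against 104, 30.2 and 58.2 TPM in the same pools. Both overlapped the pools, with Nkx2-1 above all pools in 11 tumours and Hhex in 8. The log2 fold changes were 0.63 (95% interval -0.12 to 1.38, adjusted p = 0.215) for Nkx2-1 and 0.87 (0.09 to 1.64, adjusted p = 0.0958) for Hhex. The call of Hhex depended on the scaling. Hhex was higher with TMM-type scaling factors, described below, taken over the genes tested (log2 0.83, adjusted p = 0.0210) or over all genes above 0 (0.92, adjusted p = 0.0167), and with quantile normalization (0.93, adjusted p = 0.0198).

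In all, 3 of the 5 factors passed, 2 lower and 1 higher, while 25.4% of the 7825 genes tested passed, 786 lower and 1205 higher. No factor had all 15 tumours on one side of all 3 pools, which 5.69% (tumours lower) and 5.71% (tumours higher) of these genes did. The contrast rests on 3 single pools and changed with them. Without the K5-Tert pool, Pax8 (log2 -1.10, adjusted p = 0.059) and Foxe1 (-0.78, adjusted p = 0.119) no longer passed, while Hhex (1.70, adjusted p = 0.000605) and Nkx2-1 (1.31, adjusted p = 0.0094) did, with 29.3% of genes passing. Without the Tert-123C>T pool, the log2 value of Nkx2-1 was -0.11 and that of Hhex 0.23, with 21.5% of genes passing. Without the wild-type pool Foxe1 had an adjusted p of 0.0504, and 18.4% of genes passed.

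C cell and endothelial genes, of cells that also make Nkx2-1 and Hhex, differed between tumours and pools and were highest in the Tert-123C>T pool. The 8 C cell markers summed to 7.20 to 44.9 TPM in K5-Tert tumours, 7.77 to 38.1 TPM in Tert-123 tumours and 12.8 to 23.9 TPM in Braf tumours, against 264, 2165 and 443 TPM in the pools of K5-Tert, of Tert-123C>T and of wild type. Calca, which encodes calcitonin, made up 1144 TPM of the sum in the Tert-123C>T pool. The 8 endothelial markers summed to 13.0 to 121 TPM in K5-Tert tumours, 17.6 to 82.4 TPM in Tert-123 tumours and 23.5 to 30.5 TPM in Braf tumours, against 92.7, 919 and 340 TPM in the same pools. The Tert-123C>T pool also held Pth, the parathyroid hormone gene, at 632 TPM, against 27.8 TPM in the K5-Tert pool and 26.3 TPM in the wild-type pool. Its 6 T cell markers summed to 159 TPM, against 1.22 and 9.93 TPM in those 2 pools. Its 6 fibroblast markers summed to 327 TPM, against 33.4 and 34.8 TPM. Macrophage genes ran the other way from C cell and endothelial genes. The 8 markers summed to 501 to 3800 TPM in K5-Tert tumours, 217 to 5116 TPM in Tert-123 tumours and 597 to 1029 TPM in Braf tumours, against 73.0, 285 and 60.5 TPM in the pools, and 5 of the 7 tested rose. The 6 B cell markers summed to 0.897 to 19.3 TPM in the tumours and 1.52 to 6.45 TPM in the pools. All 3 tested C cell markers and all 4 tested endothelial markers fell with the Braf mutation. Over all 7825 genes tested in that contrast, 786 were lower and 1205 higher. The 3 C cell markers and Kdr, an endothelial marker, passed the filter on level only with the pools included. The Tert-123C>T pool had the lowest level of each of the 5 factors among the pools. In bulk libraries such as these, fewer thyroid cells and less RNA per cell cannot be told apart, and the part of other cells in the contrast was not tested.

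Ratios between 2 factors within a library do not depend on how libraries are scaled, and they separated tumours from pools more widely than the levels. They were computed after the levels were known and are given as descriptions without a test. Pax8 over Glis3 was 1.24 to 3.23 in the 15 tumours, against 36.3, 14.0 and 24.6 in the pools of K5-Tert, of Tert-123C>T and of wild type. Pax8 over Hhex was 0.406 to 1.09 in the tumours, against 4.42, 4.17 and 4.70 in the pools. Pax8 over Nkx2-1 was 0.321 to 0.667 in the tumours, against 3.42, 3.18 and 2.09. The 3 ratios were thus lower in every tumour than in every pool, and the Tert-123C>T pool lay with the other pools.

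The same held for Foxe1 over Glis3, at 0.912 to 2.65 in the tumours and 14.2, 7.72 and 12.5 in the pools, and for Foxe1 over Hhex, at 0.290 to 1.14 and 1.73, 2.31 and 2.39. Nkx2-1 over Foxe1 was 1.49 to 5.33 in the tumours, against 0.748, 0.569 and 0.942 in the pools, and was higher in every tumour. Nkx2-1 over Hhex was 0.825 to 1.96 in tumours, against 1.29, 1.31 and 2.25 in the pools, and Pax8 over Foxe1 was below every pool in 14 of 15 tumours. All 6 ratios of Pax8 or Foxe1 to Nkx2-1, Hhex or Glis3 put the 15 tumours on one side of the 3 pools, as did 17.8% of the 27762426 pairs of tested genes above 0 in every library. The 6 ratios share their genes and are not independent. No ratio within Pax8 and Foxe1, or within Nkx2-1, Hhex and Glis3, did so.

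**Figure D2:**
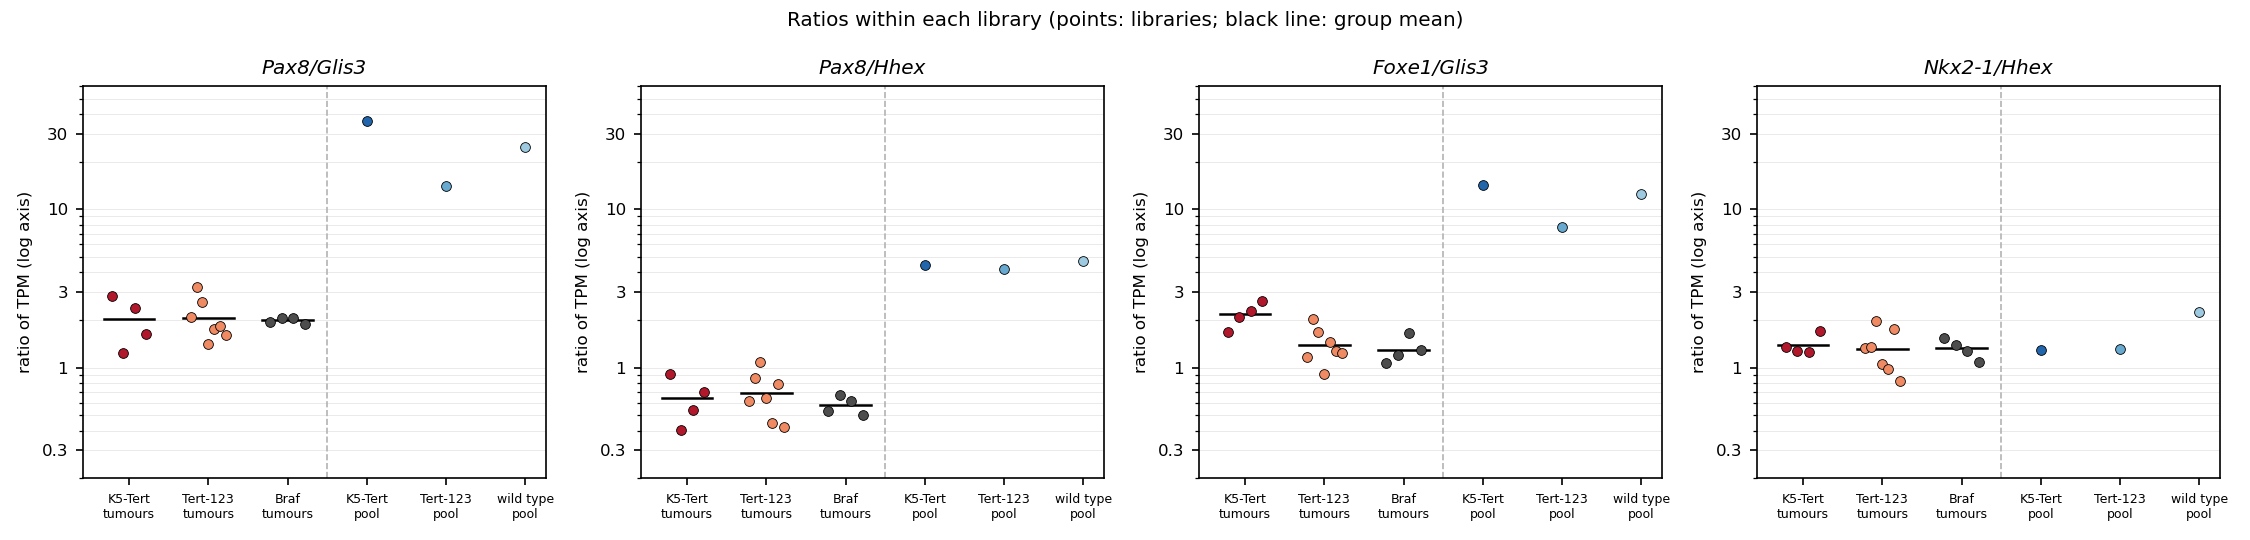
Ratio of the TPM of 2 factors (vertical log axis) in each library, with 1 point per library and a black line at the mean of each tumour group. Pax8/Glis3, Pax8/Hhex and Foxe1/Glis3 are lower in all 15 tumours than in the 3 pools, while Nkx2-1/Hhex overlaps.

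The tested thyroid effectors, here genes of hormone synthesis, transport and related functions, fell with the Braf mutation in the same fit. The 15 listed effectors summed to 230 to 368 TPM in K5-Tert tumours, 184 to 740 TPM in Tert-123 tumours and 206 to 368 TPM in Braf tumours, against 33032, 26957 and 33203 TPM in the pools of K5-Tert, of Tert-123C>T and of wild type. All 5 effectors tested were lower. Tg, which encodes the hormone precursor thyroglobulin, had a log2 fold change of -7.49, Iyd, which recovers iodide, of -4.21 and the cadherin Cdh16 of -3.61. The median over all genes tested was 0.07, and over the 5 factors 0.63. Without the filter on low levels, 10 of the 15 effectors were lower in every tumour than in every pool, as were 3.72% of the 22693 entries above 0 in any library. Tshr, Duox1, Duoxa1, Slc26a4 and Fcgbp did not separate in this way. Slc26a4 averaged 2.35, 4.08 and 3.40 TPM in K5-Tert, Tert-123 and Braf tumours, against 0.872, 0 and 0 TPM in the pools. By the SD of the log2 ratio to Pax8 over 18 libraries, Tg was at rank 7667 of 7820 genes.

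The tested genes of lung epithelium, where Nkx2-1 is also the lineage factor, went the other way. The surfactant genes Sftpb, Sftpa1 and Sftpd rose by 8.31, 8.60 and 9.26 on the log2 scale with the Braf mutation, and the lamellar body gene Lamp3 by 3.82. All 4 tested members of the 8-gene list rose, where 15.4% of the 7825 genes tested were higher. These 4 passed the filter on level through the tumours, in which they were high, so their count is no independent support. The list summed to 5470 to 10234 TPM in K5-Tert, 4706 to 12522 TPM in Tert-123 and 5816 to 10415 TPM in Braf tumours. In the pools of K5-Tert, of Tert-123C>T and of wild type it summed to 77.2, 25.6 and 9.87 TPM. Sftpc, which defines the surfactant-producing lung cell, averaged 1.72, 4.28 and 1.41 TPM in the 3 tumour groups and was listed at 0 in all pools. The untested Scgb3a2 and Foxj1, at 11.7 and 6.05 TPM in the Tert-123C>T pool, exceeded every tumour group mean there. Among tumour groups none of the 4 tested lung genes and none of the 5 tested effectors passed.

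**Figure D3:**
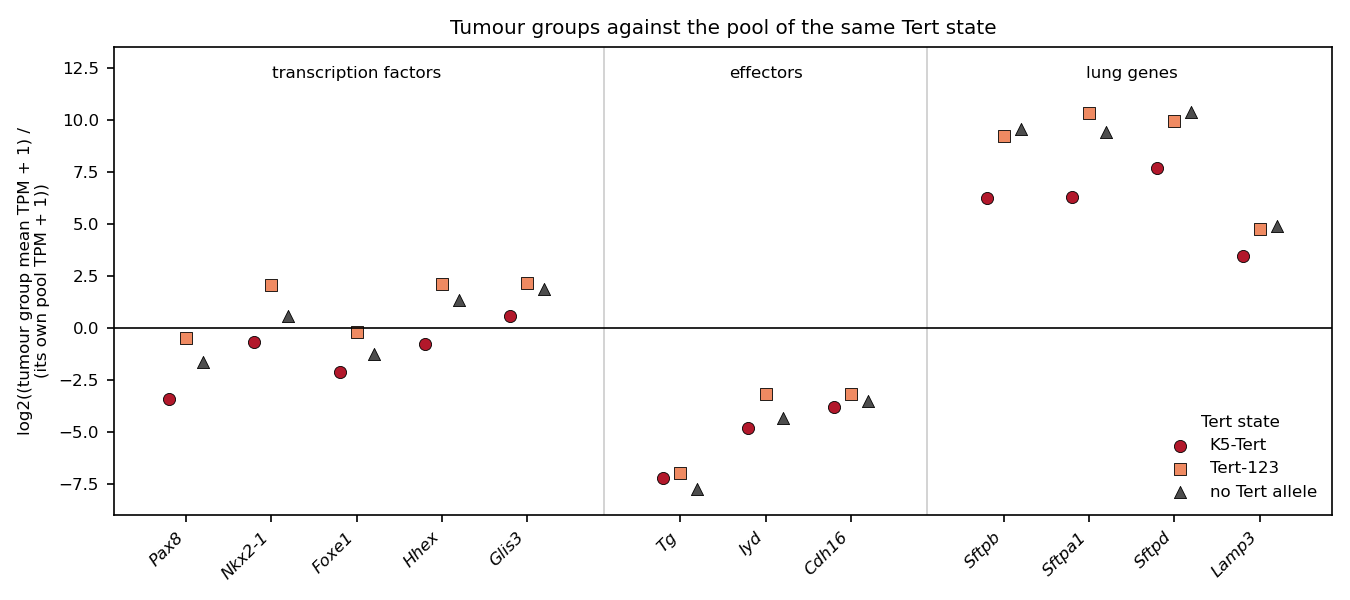
Log2 ratio of the mean TPM + 1 of each tumour group to the TPM + 1 of the pool with the same Tert state (vertical axis), for the 5 transcription factors, the effectors Tg, Iyd and Cdh16 and the 4 tested lung genes, with 1 symbol per Tert state. The values of these 3 effectors are below 0 and all lung gene values above 0, and in all 5 factors the K5-Tert value is the lowest of the 3.

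Set against the pool of their own Tert state, the 3 tumour groups differed. Hhex averaged 60.3 TPM in K5-Tert tumours and 104 TPM in their pool, and all 4 tumours were below it. It averaged 133 TPM in Tert-123 tumours and 30.2 TPM in their pool, and 149 TPM in Braf tumours and 58.2 TPM in the wild-type pool, and every one of these 11 tumours was above its pool. Pax8 was 0.0918 times its pool in K5-Tert tumours, 0.706 times in Tert-123 tumours and 0.314 times in Braf tumours. Glis3 was 1.51, 4.75 and 3.87 times its pool in the same groups. Nkx2-1 was 0.616, 4.25 and 1.49 times its pool, a split of group means like that of Hhex. It was below its pool in 3 of 4 K5-Tert tumours and above it in all Tert-123 and Braf tumours. A fit with 6 groups compared the log2 differences between tumour and pool. It was added after these directions were seen and rests on the same single pools, so its p-values are no independent support for them. Between K5-Tert and Tert-123 it differed for Pax8 by -3.12 (adjusted p = 0.0195), for Hhex by -2.91 (adjusted p = 0.0077) and for Nkx2-1 by -2.78 (adjusted p = 0.0106), where 16.4% of all genes tested passed. Foxe1 (-1.92, adjusted p = 0.0708) and Glis3 (-1.64, adjusted p = 0.0611) did not pass, nor did any factor between K5-Tert and no Tert allele (smallest adjusted p = 0.0718, Hhex; 2.48% of genes passed) or between Tert-123 and no Tert allele (smallest adjusted p = 0.538, Nkx2-1; 0.716% passed). Each pool is 1 library, assumed to vary like the tumours. The Tert-123C>T pool was the one with the C cell, parathyroid, endothelial, T cell and fibroblast transcripts above. With the wider of the scaling factors described below only Hhex still passed (-1.93, adjusted p = 0.0343, 12.6% of genes).

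K5-Tert tumours were set against Braf tumours to ask what the transgene adds. Nkx2-1, Hhex, Glis3 and Pax8 fell in the values as deposited, and Foxe1 did not pass. Nkx2-1 averaged 83.0 ± 37.3 TPM in K5-Tert tumours and 195 ± 20.5 TPM in Braf tumours (SD, n = 4 each), a log2 fold change of -1.31 ± 0.31 (SE, adjusted p = 0.0098). Hhex averaged 60.3 ± 28.0 TPM in K5-Tert tumours and 149 ± 21.4 TPM in Braf tumours, a log2 fold change of -1.37 ± 0.30 (adjusted p = 0.0074). Glis3 averaged 19.2 ± 9.06 TPM in K5-Tert tumours and 43.1 ± 7.07 TPM in Braf tumours, a log2 fold change of -1.20 ± 0.27 (adjusted p = 0.0082). For these 3 genes all 4 K5-Tert tumours lay below every Braf tumour, as did 16.2% of genes tested. Pax8 averaged 42.3 ± 33.5 TPM in K5-Tert tumours and 85.9 ± 16.6 TPM in Braf tumours (log2 -1.27 ± 0.39, adjusted p = 0.0282), with K5-Tert tumour 1 within the range of the Braf tumours. Foxe1 averaged 40.1 ± 13.6 TPM in K5-Tert tumours and 57.2 ± 20.2 TPM in Braf tumours (log2 -0.50 ± 0.33, adjusted p = 0.255), and the groups overlapped.

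These 4 falls stood in a general shift. Of the 7498 genes tested, 21.9% were lower in K5-Tert tumours and 0.587% higher, and the median over all of them was -0.48 on the log2 scale. Relative to that median the values were -0.90 for Hhex, -0.83 for Nkx2-1, -0.79 for Pax8, -0.73 for Glis3 and -0.02 for Foxe1. Libraries were therefore also scaled by factors of the TMM type, which take the trimmed mean of the log ratios to 1 library as 0. With factors taken over the genes tested, Hhex (-0.89, adjusted p = 0.0164), Glis3 (-0.73, adjusted p = 0.0182) and Nkx2-1 (-0.82, adjusted p = 0.035) were lower and Pax8 was not called (-0.79, adjusted p = 0.0887), with 9.58% of genes lower. With factors taken over all genes above 0, 0 of the 5 passed, though 3 had an unadjusted p under 0.05, the nearest being Glis3 (-0.65, adjusted p = 0.0508) and Hhex (-0.80, adjusted p = 0.0531), with 4.95% of genes lower.

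The size of the fall and its calls varied with K5-Tert tumours 2, 3 and 4, the libraries with low Malat1. K5-Tert tumour 1 held 91.6 TPM of Pax8, 137 TPM of Nkx2-1, 101 TPM of Hhex and 32.3 TPM of Glis3, the highest of the 4 for each, and for all but Pax8 still below every Braf tumour. Without tumours 2 and 4 the log2 fold changes were -1.04 for Glis3, -0.98 for Nkx2-1, -0.97 for Hhex and -0.67 for Pax8, against a median of -0.13 over all genes. With 2 K5-Tert libraries left, 0 of the 5 factors passed (0.213% of genes lower), though 3 had an unadjusted p under 0.05. Relative to the median of all genes, Glis3 (-0.91), Nkx2-1 (-0.86) and Hhex (-0.84) were about as low as in the full set, and Pax8 (-0.55) less so. Tumour 1 alone against the Braf tumours gave -0.54 for Hhex, -0.50 for Nkx2-1, -0.39 for Glis3 and 0.11 for Pax8, against a median of 0.03. With that single library, assumed to vary like the other groups, none passed (0.0267% of genes lower) and 0 had an unadjusted p under 0.05, while the 95% interval for Hhex ran from -1.43 to 0.35. The Pax8 call was also lost without K5-Tert tumour 2 (adjusted p = 0.126) or 4 (0.0851) and without Braf tumour 2 (0.0672), 3 (0.0900) or 4 (0.0566). The part of library quality in these falls was not tested.

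Some genes of other cells were higher in K5-Tert than in Braf tumours, where 0.587% of the 7498 genes tested were higher. The 6 markers of pericytes and smooth muscle summed to 37.2 to 185 TPM in K5-Tert tumours and 17.1 to 35.9 TPM in Braf tumours, with no overlap. Among single genes tested, 1.11% had every K5-Tert tumour above every Braf tumour. Of the 3 markers tested, Acta2 (log2 1.76, adjusted p = 0.0236) and Tagln (1.73, adjusted p = 0.0209), which encode smooth muscle proteins, were higher. Cd14, a macrophage receptor gene, was the 1 of 7 tested macrophage markers that was higher (2.18, adjusted p = 0.0192). The 6 fibroblast markers summed to 212 to 1676 TPM in K5-Tert tumours and 161 to 697 TPM in Braf tumours, and none of the 5 tested passed, nor did any of 3 tested endothelial markers. The part of these cells in the falls was not tested.

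**Figure D4:**
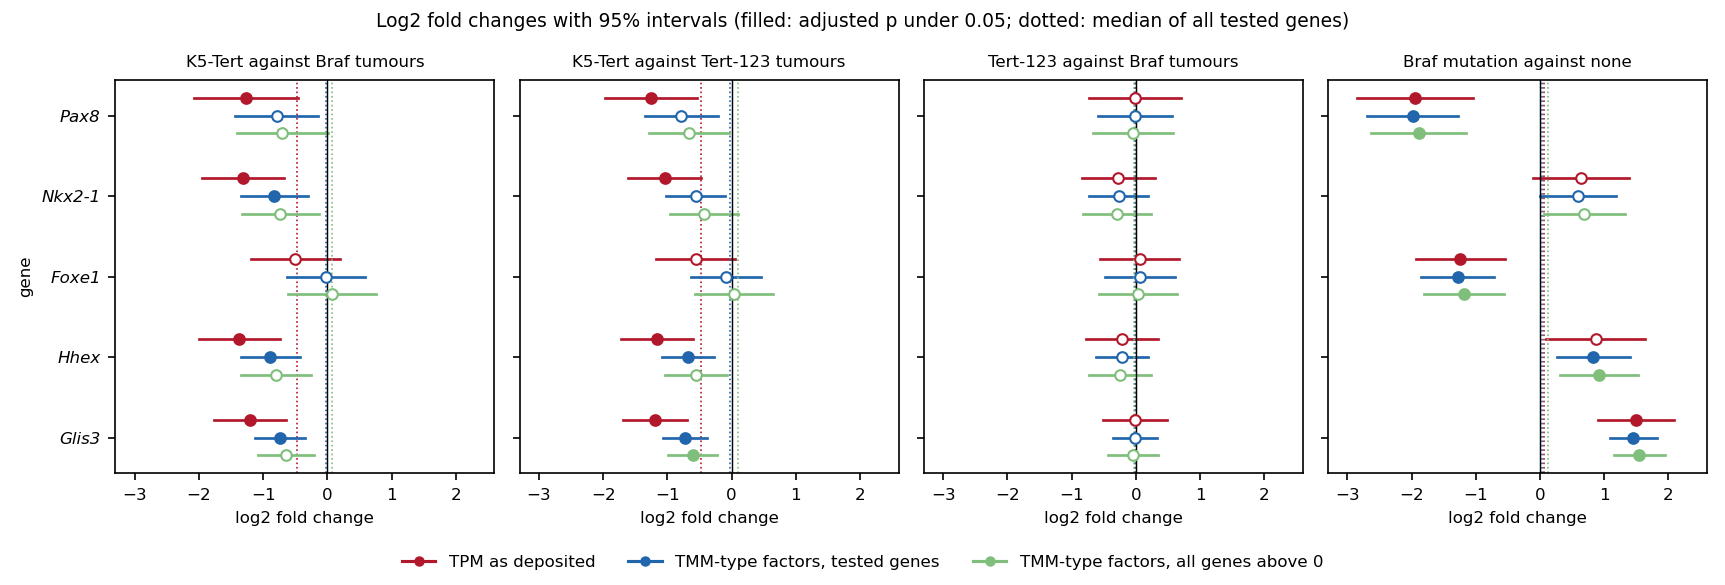
Log2 fold change (horizontal axis) of each factor in 4 comparisons, with 95% intervals, for values as deposited and after each kind of TMM-type scaling. Filled points have an adjusted p under 0.05 and dotted lines give the median of all genes tested, which is -0.48 for K5-Tert tumours as deposited and near 0 after scaling.

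Against Tert-123 tumours the K5-Tert tumours gave like values, and the 2 comparisons share the K5-Tert libraries. Nkx2-1 averaged 83.0 ± 37.3 TPM in the 4 K5-Tert tumours and 169 ± 55.6 TPM in the 7 Tert-123 tumours (SD), Hhex 60.3 ± 28.0 and 133 ± 42.1 TPM, Glis3 19.2 ± 9.06 and 43.0 ± 9.21 TPM, and Pax8 42.3 ± 33.5 and 89.1 ± 34.5 TPM. The 4 genes were lower as deposited, with log2 fold changes of -1.04 for Nkx2-1 (adjusted p = 0.0118), -1.16 for Hhex (0.0074), -1.19 for Glis3 (0.0042) and -1.26 for Pax8 (0.0144), where 29.5% of genes were lower. Foxe1, at 40.1 ± 13.6 TPM in K5-Tert tumours and 60.6 ± 22.5 TPM in Tert-123 tumours, did not pass (log2 -0.56, adjusted p = 0.141). The groups overlapped for all 5 factors, with 3 of 4 K5-Tert tumours below every Tert-123 tumour except for Foxe1, where there were 2. Full separation downwards was seen in 5.25% of genes. Glis3 stayed past the threshold with both kinds of TMM-type factors (adjusted p = 0.0099 and 0.0386), Hhex with the first alone (0.0274), and Nkx2-1 and Pax8 with neither, while 9.71% and 4.88% of genes were lower. Without K5-Tert tumour 2 the calls of Pax8 (adjusted p = 0.0910) and Nkx2-1 (0.0666) were lost, with 7.36% of genes lower, and without tumour 4 that of Pax8 (0.0597).

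Tert-123 tumours were set against Braf tumours to ask about the effect of the promoter change. None of the 5 factors passed, nor did any of the 7498 genes tested (0%, limma). At an unadjusted p under 0.05 the counts were 0 of 5 factors and 50 of 7498 genes. The log2 differences were 0.06 for Foxe1 (95% interval -0.55 to 0.67), -0.01 for Pax8 (-0.73 to 0.71), -0.02 for Glis3 (-0.52 to 0.48), -0.21 for Hhex (-0.77 to 0.35) and -0.27 for Nkx2-1 (-0.83 to 0.30). The spread within Tert-123 tumours was wide, with the highest Pax8 2.83 times the lowest and the highest Nkx2-1 3.11 times the lowest, against 1.58 and 1.28 times in Braf tumours. Tert-123 tumour 3 had the highest Pax8, Nkx2-1, Foxe1 and Glis3 of its group, and tumour 4 the lowest Pax8, Nkx2-1, Foxe1 and Hhex.

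Close relatives of the factors were mostly near 0. Of 18 listed paralogs, 12 averaged under 1 TPM and 2 could be tested among tumours. Nkx2-2, a homeodomain factor of neuroendocrine and pancreatic cells, averaged 11.8 TPM in K5-Tert tumours, 36.9 TPM in Tert-123 tumours and 40.5 TPM in Braf tumours, against 4.82, 0.465 and 6.89 TPM in the pools of K5-Tert, of Tert-123C>T and of wild type. All 15 tumours lay above all 3 pools, as did 5.71% of the 7825 genes tested. With the Braf mutation Nkx2-2 rose by 2.72 on the log2 scale (adjusted p = 9.05e-05, limma), 1 of 3 paralogs tested, where 15.4% of genes were higher. It passed the filter on level through the tumours alone, so neither count is independent support. It was lower in K5-Tert than in Braf tumours (log2 -1.72, adjusted p = 0.0073). Glis2, the nearest relative of Glis3 that was tested, did not pass in either comparison, with log2 values of 0.08 for the Braf mutation and -0.63 for K5-Tert against Braf tumours.

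Other factors of foregut and neck tissue behaved variously. Of 19 listed, 4 were tested. Foxa2, a forkhead factor of foregut endoderm, averaged 11.9, 8.74 and 13.4 TPM in K5-Tert, Tert-123 and Braf tumours, against 0, 3.95 and 0.922 TPM in the pools of the same order. It rose by 2.38 on the log2 scale (adjusted p = 0.00037, limma), where 15.4% of genes tested were higher. Foxa2 too passed the filter on level through the tumours alone. Sox9 averaged 47.0 TPM in K5-Tert tumours and 81.2 TPM in Braf tumours and was lower (log2 -0.88, adjusted p = 0.0449), a call lost with TMM-type factors (adjusted p = 0.251). Irx3 and Tbx3 passed in neither comparison.

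Of 11 listed coregulators, 10 were tested. In the contrast of tumours with pools, 3 of them were higher in tumours and 1 was lower. Over all 7825 genes tested there, 25.4% passed, 1205 higher and 786 lower. Apex1, which keeps Pax8 in a reduced state in rat thyroid cells, averaged 18.9, 27.7 and 29.1 TPM in K5-Tert, Tert-123 and Braf tumours, against 11.3, 5.87 and 8.90 TPM in the pools, and rose by 1.44 on the log2 scale (adjusted p = 0.00018). The Groucho-type corepressors Tle2 (1.59, adjusted p = 0.00070) and Tle1 (0.91, adjusted p = 0.0422) rose, and Tle4 (-1.03, adjusted p = 0.027) fell. In K5-Tert against Braf tumours 5 of the 10 were lower, among them Tle2 (17.8 against 79.1 TPM, log2 -2.20, adjusted p = 0.00037), the acetyltransferase genes Ep300 and Crebbp, Tle1 and Tle4. In that comparison 21.9% of all genes tested were lower as deposited. With TMM-type factors 2 of these 5 stayed lower, Tle2 (adjusted p = 0.00027) and Tle4 (0.0272), where 9.58% of genes were lower.

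The genes whose levels followed each factor most closely were found by the SD, over the 18 libraries, of the log2 ratio of gene to factor. The ratio was taken after adding 1 to each TPM, so it still depends on library scaling for genes of low level. Col4a3, named next, averaged 3.50 TPM in K5-Tert tumours. For Pax8 the nearest were the collagen IV chain gene Col4a3 (SD 0.319), Ildr1 (0.344) and the growth factor gene Vegfa (0.363), against a median SD of 1.02 over 7820 genes. Vegfa averaged 68.1, 128 and 122 TPM in K5-Tert, Tert-123 and Braf tumours, against 470, 125 and 271 TPM in the pools, beside 460, 126 and 274 TPM of Pax8. For Foxe1 they were Nipal2 (0.294), Epb41l5 (0.299) and Rasef (0.311), against a median of 0.756. For Nkx2-1 they were Zfp687 (0.268), the elongation factor gene Ctr9 (0.284) and Terf2 (0.291), which encodes a telomere-binding protein, against a median of 0.698. For Hhex they included the p53 regulator gene Mdm4 (0.271) and Snrnp48 (0.272), against 0.705. For Glis3 they were the kinase gene Ptk2b (0.259), Myo18a (0.284) and Zfhx2 (0.284), against 0.789. Points in this measure share library depth and composition, and no test was made.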

How the data were processed

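RNA of 9000 to 20000 sorted YFP+ cells was amplified through 14 PCR cycles in a low-input library protocol and sequenced in pairs of 100 bp, per the labels' design text. The authors deposited 1 table of normalized values, read here as TPM because each column sums to 1000000, though its name speaks of normalized counts. Aligner, quantifier and build are not given in the sources, and the depth is unknown. Of 23652 entries, 26 bore dates for names and were dropped (at most 0.0455% of a library's TPM).

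Genes that reached 10 TPM in at least 4 libraries entered limma 3.58.1 (R 4.3.3) as log2(TPM + 1), with variances shrunk toward a trend in mean level. The tumour comparisons used the 15 tumours (7498 genes, 12 residual degrees of freedom), and the Braf contrast used all 18 libraries with a Tert allele term (7825 genes, 14 degrees of freedom). Fold changes are on the log2(TPM + 1) scale, tests are two-sided, and a call is a Benjamini-Hochberg adjusted p under 0.05 across every gene of the fit. All 5 factors passed the filter, so no permutation test was needed. Library numbers follow accession order and pair nothing.

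The factors, gene lists and tests were chosen with earlier results of these data known. The rule for named genes takes the 5 factors, Tert, up to 6 genes of a list (those past the threshold by smallest p, then by mean TPM) and the 3 genes nearest in pattern to each factor. The fit was tested on simulated data. Alternatives were other pseudocounts and filters, quantile normalization, TMM-type factors (trimming 30% by ratio and 5% by level), removal of mean and length trends, rescaling without Rpph1, library weights, fits of fewer groups and leaving out each library. Leaving out K5-Tert tumours 2 and 4 or 2, 3 and 4, Xist as a covariate, TMM-type factors over all genes above 0 and the fit of 6 groups were chosen after seeing the data. Values of some genes the rule names are not reported here.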

Additional observations from a re-analysis of the deposited data

Results flagged for a closer look

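Hhex is singled out because tumour groups moved in opposite directions relative to their own pools, with every tumour of a group on the same side. The log2 difference of mean TPM + 1 was -0.78 for K5-Tert tumours, all 4 of which were below the K5-Tert pool. It was 2.10 for Tert-123 tumours and 1.34 for Braf tumours, all 11 of which were above their pools. Group means of Nkx2-1 split the same way, at -0.69, 2.06 and 0.57. For Nkx2-1, 3 of 4 K5-Tert tumours were below their pool and all Tert-123 and Braf tumours above theirs. In the fit of 6 groups, which was added after these directions were seen and uses the same single pools, so that its p-values are no independent support, the difference between K5-Tert and Tert-123 was -2.91 for Hhex (adjusted p = 0.0077, limma), -3.12 for Pax8 (0.0195) and -2.78 for Nkx2-1 (0.0106). The difference between K5-Tert and no Tert allele did not pass for Hhex (-2.20, adjusted p = 0.0718). Each pool is a single library, and the Tert-123C>T pool held the C cell, parathyroid, endothelial, T cell and fibroblast transcripts given above. The part of that pool in these differences was not tested. No library was far from the rest of its group by Dixon's criterion in the 15 sets of 4 or 7 tumours examined, where chance gives about 1 in 20. K5-Tert tumour 1 came nearest, for Pax8, where its gap to the next library was 0.818 of the range, just under the critical value. Its gap was 0.763 for Hhex, 0.756 for Nkx2-1, 0.699 for Glis3 and 0.206 for Foxe1. Passing the criterion with 4 libraries does not show that a group is uniform.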

How the results depend on the processing

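Against Braf tumours, 4 factors were lower in K5-Tert tumours as deposited. The count was 2 after removal of mean and length trends, 2 with Xist as a covariate, 0 with TMM-type factors over all genes above 0, 0 without K5-Tert tumours 2 and 4 and 0 without K5-Tert tumours 2, 3 and 4, and 3 to 4 when 1 library was left out. Against Tert-123 tumours the count of 4 became 2 with TMM-type factors, 2 with quantile normalization, 1 after removal of mean and length trends, 1 with TMM-type factors over all genes above 0, 0 without K5-Tert tumours 2 and 4 and 0 without tumours 2, 3 and 4, and 2 to 4 when 1 library was left out. For the Braf mutation the count of 3 became 5 with library weights and 5 without K5-Tert tumours 2, 3 and 4. It was 4, with Hhex added, with both kinds of TMM-type factors, with quantile normalization, after removal of trends, without Rpph1, without K5-Tert tumours 2 and 4 and in Braf tumours against the 3 pools, and was 2 to 3 when 1 library was left out. The median log2 fold change of the 5 factors against Braf tumours was -1.27 as deposited, -0.97 without K5-Tert tumours 2 and 4 and -0.39 without tumours 2, 3 and 4, settings that leave 2 and 1 K5-Tert libraries. The cause of these changes was not tested. The number of genes called over the whole table moved with the same settings, from 1641 lower in K5-Tert than in Braf tumours as deposited to 371 with TMM-type factors over all genes above 0 and 16 without tumours 2 and 4.

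Signs changed in values that had not been called, and in Pax8. Pax8 without K5-Tert tumours 2, 3 and 4 was 0.11 against Braf and 0.12 against Tert-123 tumours. Foxe1 with TMM-type factors over all genes above 0 was 0.071 and 0.038 in the same comparisons. Between Tert-123 and Braf tumours Foxe1 was -0.011 with quantile normalization, -0.023 without Rpph1 and -0.032 with Xist as a covariate, Pax8 was 0.026 with Xist as a covariate and Glis3 was 0.020 after removal of trends. Leaving out 1 library gave -0.12 to 0.27 for Foxe1, -0.15 to 0.099 for Pax8 and -0.11 to 0.076 for Glis3 in that comparison, and -0.11 to 1.31 for Nkx2-1 with the Braf mutation.

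Over single factors, 498 values kept direction and side of the threshold, 47 lost the call, 13 gained one and 23 changed sign. A filter at 50 TPM left no value for Glis3. No paired analysis was possible because the labels give no replicate numbers. With the depth unknown, no detection limit can be given for the lowest levels.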
